A study of Mus musculus with 6 samples.

Results

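The genes described here are 44 genes of DNA replication licensing and S phase, measured on expression arrays of epidermis from Rptor cKO and wild-type mouse embryos. A member was taken through probe sets, the groups of array probes read as 1 value, whose sole annotated gene was that member. This left 42 genes of 30063 measured, because the probe sets of Mcm7 and Orc5 also name other genes. The 3 Rptor cKO arrays came from the epidermis of conditional knockout embryos at E18.5, late in gestation. Rptor encodes Raptor, the subunit through which the growth kinase complex mTORC1 binds its substrates. The 3 wild-type arrays came from littermates of the same age, and all embryos were sorted by hand and genotyped. Neither the recombinase nor the cell type it acts in is stated for the knockout in the sources used here. Each array is a separate biological replicate per the series design. All values are log2 values of probe sets, and every difference is Rptor cKO minus wild type.

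A cell copies its DNA once per division by first licensing the start points and then firing them. In G1 the origin recognition complex, with CDC6 and CDT1, loads the ring of MCM proteins onto DNA as an inactive helicase. CDC45 and the GINS complex switch that ring on, DNA polymerases with their clamp and clamp loader copy the strands, and chromatin assembly factor 1 places histones behind the fork. Transcription factors of the E2F family, held back by the retinoblastoma protein and its relatives until cyclin-dependent kinases act, turn on many of these genes. In stratified epidermis most dividing cells lie in the basal layer, and cells that move up into the spinous and cornified layers leave the cell cycle.

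Rptor itself read 6.54, 6.82 and 6.72 on Rptor cKO arrays 1 to 3, against 6.98, 7.46 and 7.004 on wild-type arrays 4 to 6. The groups did not overlap, but the difference of -0.46 (SE 0.15, limma adjusted p = 0.0988) missed the threshold of 0.05. Array medians over all probe sets ran from 4.15 to 4.22 in Rptor cKO and from 4.08 to 4.16 in wild type. Xist, which is transcribed from an inactive X chromosome, was at 10.57 or above on Rptor cKO arrays 1 and 3 and at 3.55 or below on the other arrays. The labels do not give embryo sex. All arrays high in Xist were Rptor cKO, so embryo sex, if Xist marks it, is partly mixed with genotype. Krt5, a basal keratin, was at 11.93 or above on every array, and Krt10, a keratin of the layers above, at 10.54 or above.

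The promoter letters are shown because many genes of this kind are known as E2F targets. The differences between the groups are described after the sequences, and a link between E2F words and those differences was not tested. RefSeq promoter windows of build GRCm38.p6, from 250 bases before the annotated start site to 50 bases after it, were found for 33 of the 42 genes. Gmnn, Mcm4, Gins1, Gins2, Gins4, Prim2, Pole, Rfc2 and Ccne2 had no entry in the table. An E2F word was any of TTTCCCGC, TTTCGCGC, TTTGCCGC and TTTGGCGC, read on both strands, and matches on opposite strands could overlap. The stretches below, printed on the strand of the gene with E2F words in capitals, were chosen to show replication genes with 1, 2 or 3 matches and E2f1, which has none.
Mcm5, chr8:75109329-75109428, plus strand, ending ahead of the start site: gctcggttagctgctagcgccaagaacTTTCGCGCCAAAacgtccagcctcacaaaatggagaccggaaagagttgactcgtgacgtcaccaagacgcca
Mcm6, chr1:128359736-128359835, minus strand, ending ahead of the start site: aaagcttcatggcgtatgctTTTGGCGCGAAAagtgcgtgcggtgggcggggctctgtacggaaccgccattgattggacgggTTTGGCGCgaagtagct
Orc1, chr4:108579354-108579453, plus strand, the 100 bases before the start site: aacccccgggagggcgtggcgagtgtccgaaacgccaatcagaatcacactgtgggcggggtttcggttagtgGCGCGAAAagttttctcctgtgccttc
Cdc6, chr11:98907971-98908070, plus strand, ending ahead of the start site: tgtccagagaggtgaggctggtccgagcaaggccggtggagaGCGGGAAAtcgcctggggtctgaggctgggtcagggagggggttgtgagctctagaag
Rfc3, chr5:151651209-151651308, minus strand, the 100 bases before the start site: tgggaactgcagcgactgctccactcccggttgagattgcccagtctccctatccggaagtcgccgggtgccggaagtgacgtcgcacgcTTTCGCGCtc
Mcm3, chr1:20820266-20820295, minus strand, bases 18 to 47 from the start site on: tgGCGGGAAAacttgggaagtTTTGGCGCc
E2f1, chr2:154569427-154569526, minus strand, the 100 bases before the start site: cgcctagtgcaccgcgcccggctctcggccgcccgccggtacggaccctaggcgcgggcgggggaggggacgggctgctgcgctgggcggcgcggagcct
In Mcm5 a pair of words on opposite strands shares its middle letters, and Mcm6 holds the same arrangement once and a further word nearer the start. Rfc3 has its other word just past the stretch shown.

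E2F words were found in the promoter windows of 14 of the 33 genes, 42.4%. The share was 2.60% of all 27025 genes in the table and 3.17% of the 18008 of them that were measured here. It was 7.41% of the 675 genes that were higher in Rptor cKO and had a window. Counted by window, the shares were 35.0% of 40 windows, 2.26% of all 32851 and 2.77% of the 21926 windows of measured genes. The 14 genes were Orc1, Orc3, Cdc6, Cdt1, Mcm3, Mcm5, Mcm6, Mcm8, Gins3, Pola1, Pold1, Rfc3, Lig1 and E2f2. Of the 19 matches, 11 began before the start site and 8 after it. Among genes with a window, 7 of 15 that rose held a word, as did 7 of 18 that did not pass the test. A word typical of mitotic promoters, the cell cycle homology region TTTGAA on either strand, was in 15.2% of the replication genes and 20.2% of all genes, but in 18 of 24 mitosis genes. E2F words were in 4.17% of those mitosis genes. Such a match is a string of letters, not a measured binding site.

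**Figure D1:**
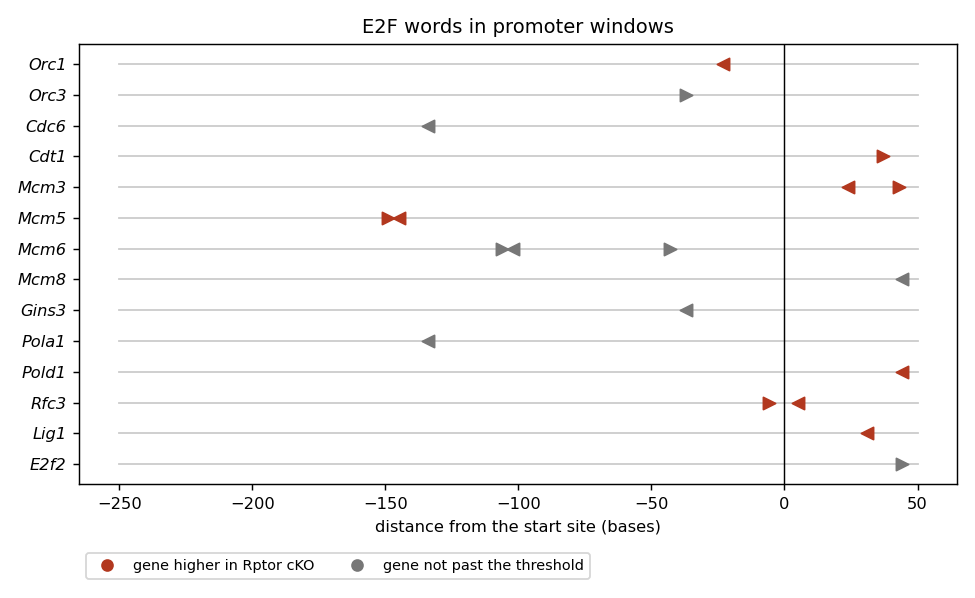
Position of each E2F word in the promoter windows of the 14 genes that hold one, in bases from the annotated start site at 0, with arrowheads pointing in the direction in which the word reads. Red marks genes higher in Rptor cKO and grey marks genes not past the threshold. Of the 19 words, 11 begin before the start site, and Mcm5 and Mcm6 show overlapping words on opposite strands.

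Replication genes were higher in Rptor cKO epidermis. In a limma fit over all 30063 genes with Benjamini-Hochberg adjustment and a threshold of 0.05, 19 of the 42 genes rose, none fell and 23 did not pass. That is 45.2% of the genes, against 3.64% of all genes called higher, 5.96% called lower and 9.6% called in either direction. At an unadjusted p under 0.05, 26 of the 42 were higher and 0 lower, against 11.9% of all genes higher and 11.4% lower. The median difference was 0.40, a 1.32-fold higher level, where the median of all genes was 0.050. Positive differences were found for 40 of the 42 genes, against 61.6% of all genes, and the exceptions were Orc4 and E2f2. For 25 genes, 59.5%, all Rptor cKO arrays lay above all wild-type arrays, against 16.5% of all genes. For none of the 42 did all Rptor cKO arrays lie below all wild-type arrays, against 12.5% of all genes. The 19 rises ran from 0.37 for Gins4 to 0.70 for Mcm3, and 417 genes of the array had a larger difference than Mcm3.

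The number of genes past the threshold depended on single arrays and on scaling, while the median difference stayed between 0.33 and 0.46. Without Rptor cKO array 2, E2f1 and Mcm3 alone passed, 2 of 42 against 0.921% of all genes called higher in that fit. The count was 12 when Rptor cKO array 1 was left out (2.46% of all genes) and 9 for Rptor cKO array 3 (2.74%). Leaving out wild-type array 4 gave 12 (2.22%), array 5 gave 12 (2.61%) and array 6 gave 17 (2.84%). Those counts hold 11 of the 19 and Cdc6 without array 4, and 15 of the 19 with Mcm6 and Rfc4 without array 6. With both Rptor cKO arrays high in Xist left out, 1 gene passed, E2f1, against 0.805% of all genes, and Rptor cKO array 2 alone lay above the wild-type mean for 39 of the 42 genes. Wild-type array 6 also lay above that mean for 39 of the 42, so this count does not set Rptor cKO array 2 apart from wild-type array 6. With the median of each array subtracted, 9 passed, against 1.96% of all genes. Without variance moderation none did, against 0.02% of all genes, and 22 of 42 were higher at an unadjusted p under 0.05, against 10.4% of all genes. The count was again 19 with repeated quantile normalization (3.37% of all genes), among genes above the negative control median (5.35%), with the mean of a gene's probe sets (3.67%) and with array weights (3.9%), and it was 15 with a trended, robust moderation (3.23%). Over the 14 alternatives the call was lost in 9 for Mcm2, Gins4, Prim2 and Rfc3, in 8 for Mcm4, Pold1 and Pole, and in 7 for Orc1 and Cdt1. It was lost in 5 for Pola2, in 4 for Orc6, in 3 for Mcm5, Mcm10, Cdc45, Lig1, Chaf1a and Ccne1, in 2 for Mcm3 and in 1 for E2f1.

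**Figure D2:**
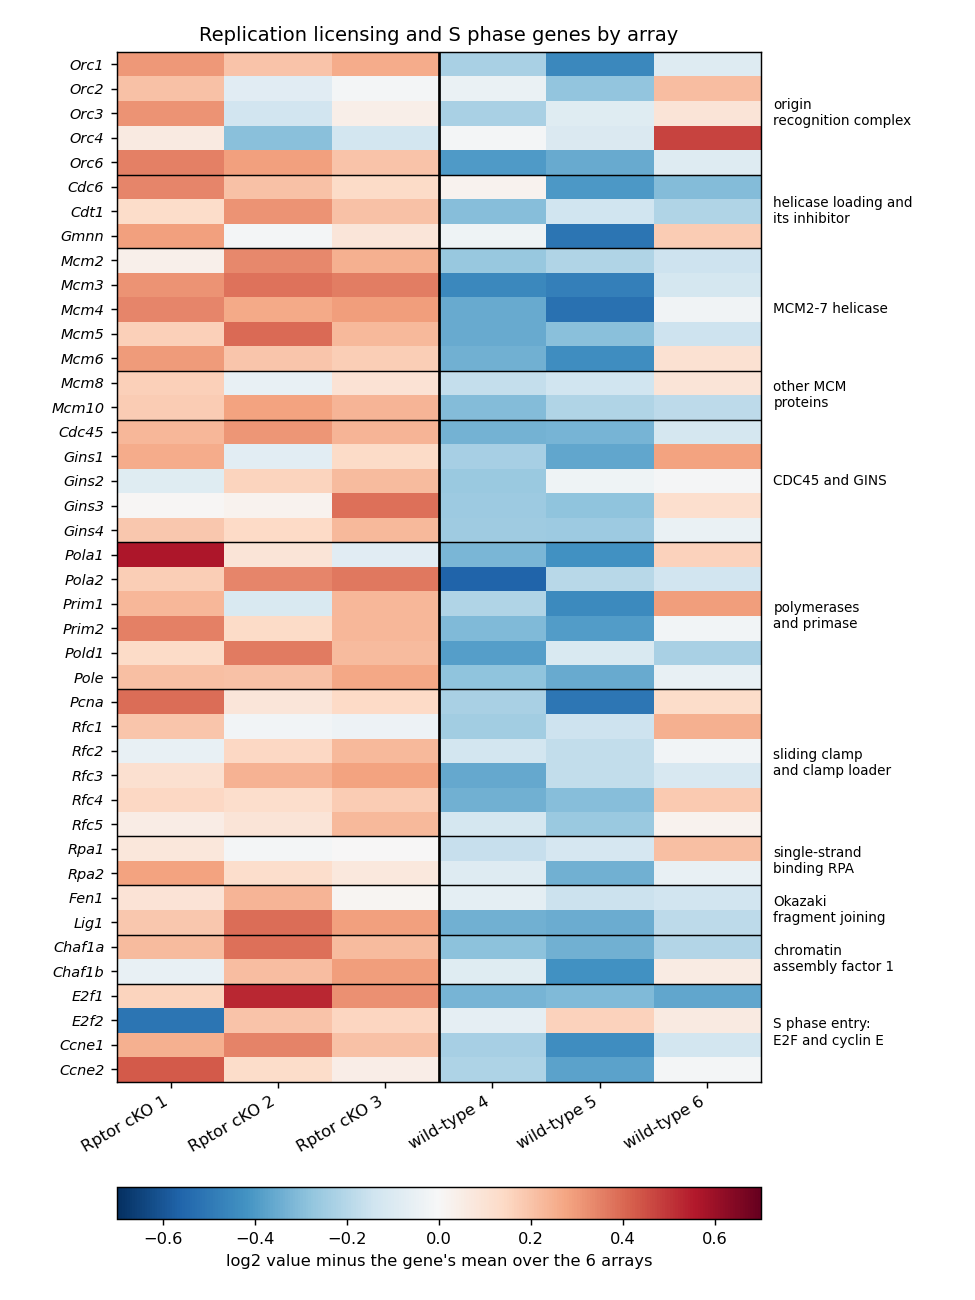
Log2 value of each of the 42 genes on each array minus the mean of that gene over the 6 arrays, with the 3 Rptor cKO arrays left of the 3 wild-type arrays and genes grouped by role. Red is above and blue below the gene's mean. Most rows are red in Rptor cKO and blue in wild-type arrays 4 and 5, and wild-type array 6 is paler.

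The wild-type arrays differed among themselves. Over the 42 genes, the median deviation from the gene's own mean was 0.19, 0.20 and 0.22 on Rptor cKO arrays 1 to 3, against -0.25, -0.30 and -0.021 on wild-type arrays 4 to 6. Wild-type array 6 was the highest of its group for 36 of the 42 genes and lay nearest to the Rptor cKO arrays. Over all genes the median deviation was -0.021, 0.0050 and -0.056 on wild-type arrays 4 to 6. The median SD of the genes was 0.11 in Rptor cKO and 0.16 in wild type, against 0.12 and 0.13 over all genes. For 29 of the 42 genes the wild-type SD was the larger one.

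**Figure D3:**
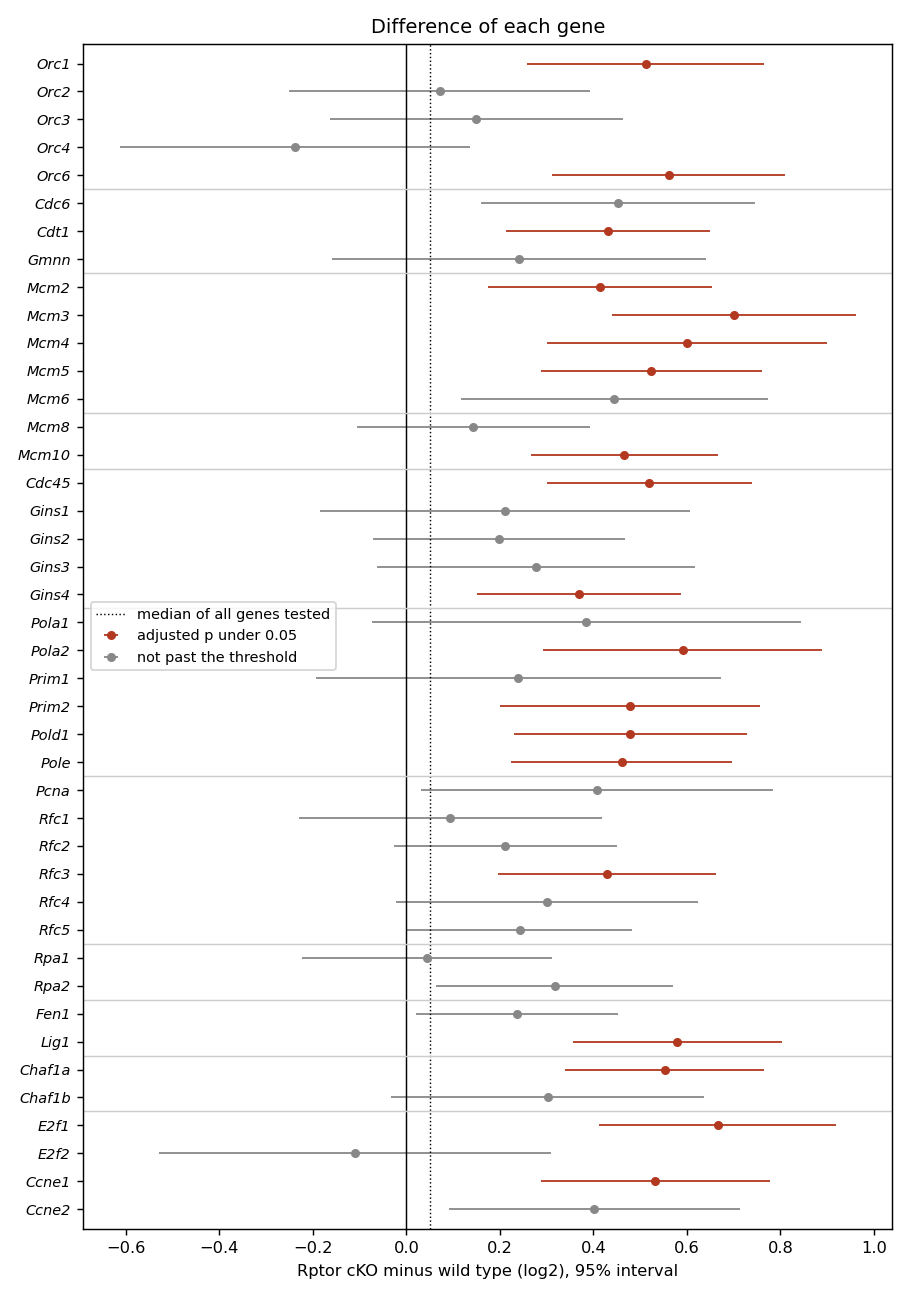
Difference of each gene between the 3 Rptor cKO and the 3 wild-type arrays on the log2 scale, with the moderated 95% interval as a bar. Red points passed the threshold and grey points did not, and the dotted line marks the median of all genes tested at 0.050. Of the 42 points 40 lie right of 0.

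MCM2 to MCM7 form the ring that unwinds DNA, and all but Mcm7 could be measured. Of these 5 genes Mcm3, Mcm4, Mcm5 and Mcm2 rose, where 3.64% of all genes were called higher. All 5 had their Rptor cKO arrays above all wild-type arrays, as did 16.5% of all genes. Mcm3 (chr1:20802966-20820312, mm10) read 8.003, 8.07 and 8.05 on Rptor cKO arrays 1 to 3, against 7.24, 7.21 and 7.57 on wild-type arrays 4 to 6. The Rptor cKO arrays lay within a narrow band and wild-type array 6 was the highest of its group. This was a 1.62-fold rise (95% interval 1.36 to 1.95; difference 0.70, SE 0.11, adjusted p = 0.00898). Mcm4 read 7.73, 7.65 and 7.68 in Rptor cKO, against 7.03, 6.86 and 7.36 in wild type, with the same high wild-type array, and rose by 0.60 (SE 0.13, adjusted p = 0.0253). Mcm5 read 8.10, 8.33 and 8.16 in Rptor cKO, against 7.58, 7.64 and 7.79 in wild type. Its groups stood clearly apart, and it rose by 0.52 (SE 0.10, adjusted p = 0.0173). Mcm2 rose by 0.41 (SE 0.10, adjusted p = 0.0438). Mcm6 differed by 0.44 (SE 0.14, adjusted p = 0.0989) and missed the threshold, with a wild-type SD of 0.29.

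Of the MCM proteins outside the ring, MCM10 helps to start the fork and MCM8 works in homologous recombination. Mcm10 read 5.75, 5.85 and 5.81 in Rptor cKO, against 5.26, 5.36 and 5.39 in wild type. The groups did not overlap, and Mcm10 rose by 0.47 (SE 0.087, adjusted p = 0.0145). Mcm8 differed by 0.14 (SE 0.11), its groups overlapped, and it was the dimmest of the 42 genes, with a mean of 4.46 over all arrays. Among 5222 negative controls the median value, taken over the arrays, was 3.85. By array it was 4.11 on Rptor cKO array 1 and from 3.81 to 3.87 on the other arrays.

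Of the origin recognition complex, whose subunits mark the start points of replication, 2 of 5 measured genes rose, against 3.64% of all genes. Orc6 read 7.53, 7.46 and 7.38 in Rptor cKO, against 6.78, 6.82 and 7.08 in wild type, and rose by 0.56 (SE 0.11, adjusted p = 0.0164). Orc1 read 5.17, 5.06 and 5.12 in Rptor cKO, against 4.63, 4.41 and 4.77 in wild type, and rose by 0.51 (SE 0.11, adjusted p = 0.0247). In both genes the wild-type arrays lay below all Rptor cKO arrays. Orc1 was dim in wild type, where the negative controls had medians from 3.81 to 3.87, and they had a median of 4.11 on Rptor cKO array 1. Orc2, Orc3 and Orc4 did not pass, with overlapping groups and differences of 0.071 (95% interval -0.25 to 0.39), 0.15 (-0.16 to 0.46) and -0.24 (-0.61 to 0.14). These intervals do not show that the 3 genes were unchanged, and a difference between them and Orc1 or Orc6 was not tested.

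The loaders CDC6 and CDT1 bring the MCM ring to the origin, and geminin binds CDT1 to stop a second loading. Cdt1 rose by 0.43 (SE 0.095, adjusted p = 0.0264). Cdc6 read 6.72, 6.58 and 6.52 in Rptor cKO, against 6.41, 5.98 and 6.08 in wild type. Although these groups did not overlap, Cdc6 missed the threshold with a difference of 0.45 (SE 0.13, adjusted p = 0.0643), and wild-type array 4 was the highest of its group here. Gmnn, the gene of geminin, differed by 0.24 (SE 0.17, adjusted p = 0.466) and its groups overlapped.

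CDC45 and the 4 GINS subunits complete the working helicase. Cdc45 read 7.04, 7.12 and 7.04 in Rptor cKO, against 6.47, 6.48 and 6.68 in wild type. All 3 Rptor cKO arrays lay close together above the wild-type arrays, and Cdc45 rose by 0.52 (SE 0.096, adjusted p = 0.0137). Gins4 rose by 0.37 (SE 0.095, adjusted p = 0.0470). Gins1, Gins2 and Gins3 differed by 0.21, 0.20 and 0.28, with overlapping groups and adjusted p from 0.311 to 0.527.

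Among the enzymes that make DNA, 4 of 6 genes rose, against 3.64% of all genes. Polymerase alpha with primase lays down primers, polymerase delta copies the lagging strand and polymerase epsilon the leading strand. Pola2, the second subunit of polymerase alpha, read 7.70, 7.87 and 7.89 in Rptor cKO, against 6.96, 7.33 and 7.39 in wild type. Wild-type array 4 was the lowest and the groups did not overlap, with a rise of 0.59 (SE 0.13, adjusted p = 0.0266). Pold1, the catalytic subunit of polymerase delta, read 7.27, 7.49 and 7.35 in Rptor cKO, against 6.75, 7.03 and 6.91 in wild type, and rose by 0.48 (SE 0.11, adjusted p = 0.0297). Pole, of polymerase epsilon, and Prim2, the large primase subunit, rose by 0.46 (SE 0.10) and 0.48 (SE 0.12). Prim1, the catalytic primase subunit, differed by 0.24 (SE 0.19), and it had the widest wild-type spread of the 42 genes (SD 0.38, n = 3). Pola1, the catalytic subunit of polymerase alpha and the sole X-linked gene among the 42, read 6.15, 5.67 and 5.51 in Rptor cKO, against 5.27, 5.16 and 5.75 in wild type. Its groups overlapped, with Rptor cKO array 1 far above the other Rptor cKO arrays, and the difference of 0.38 (SE 0.20) did not pass.

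Of the clamp and its loader 1 of 6 genes rose, against 3.64% of all genes. PCNA is the ring that keeps polymerases on DNA, and the 5 RFC subunits load it. Rfc3 read 5.87, 5.999 and 6.04 in Rptor cKO, against 5.40, 5.58 and 5.64 in wild type, and rose by 0.43 (SE 0.10, adjusted p = 0.0354). Pcna, chosen after its values were seen as a widely used marker of S phase, read 8.42, 8.11 and 8.17 in Rptor cKO, against 7.80, 7.52 and 8.16 in wild type. Wild-type array 6 reached the level of Rptor cKO arrays 2 and 3, and the difference of 0.41 (SE 0.16, adjusted p = 0.179) missed the threshold. Rfc1, Rfc2, Rfc4 and Rfc5 differed by 0.094, 0.21, 0.30 and 0.24 and did not pass.

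RPA, of which neither of 2 genes passed by limma (1 higher at an unadjusted p under 0.05, against 11.9% of all genes), coats single-stranded DNA, FEN1 trims Okazaki fragments and DNA ligase 1 joins them. Lig1 read 7.52, 7.72 and 7.62 in Rptor cKO, against 6.99, 6.98 and 7.15 in wild type. The groups stood apart, and Lig1 rose 1.49-fold (0.58, SE 0.098, adjusted p = 0.00997). Fen1 differed by 0.24 (SE 0.094, adjusted p = 0.175). Rpa2 read 6.40, 6.24 and 6.20 in Rptor cKO, against 6.03, 5.79 and 6.07 in wild type. These groups did not overlap either, yet the difference of 0.32 (SE 0.11, adjusted p = 0.123) missed the threshold, and Rpa1 differed by 0.044 (SE 0.12). Chaf1a, the large subunit of chromatin assembly factor 1, read 7.60, 7.76 and 7.60 in Rptor cKO, against 7.09, 7.05 and 7.17 in wild type. It rose by 0.55 (SE 0.093, adjusted p = 0.00991) with no overlap, whereas Chaf1b differed by 0.30 (SE 0.15) with overlapping groups.

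Of 4 regulators of S phase entry 2 rose, against 3.64% of all genes. E2F1 is an activating E2F factor, and cyclin E drives CDK2 at the start of S phase. E2f1 (chr2:154559400-154569892, mm10) read 7.07, 7.44 and 7.23 in Rptor cKO, against 6.59, 6.61 and 6.55 in wild type. The wild-type arrays, array 6 included, lay within 0.1 of each other, and E2f1 rose 1.59-fold (95% interval 1.33 to 1.89; difference 0.67, SE 0.11, adjusted p = 0.00968). Ccne1, of cyclin E1, read 6.47, 6.58 and 6.43 in Rptor cKO, against 5.99, 5.79 and 6.10 in wild type, and rose by 0.53 (SE 0.11, adjusted p = 0.0185). Ccne2, of cyclin E2, differed by 0.40 (SE 0.14, adjusted p = 0.112) with groups that did not overlap. E2f2, another activating factor, differed by -0.11 (SE 0.18), and Rptor cKO array 1 lay below all other arrays, which gave the widest Rptor cKO spread of the 42 genes (SD 0.40, n = 3).

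**Figure D4:**
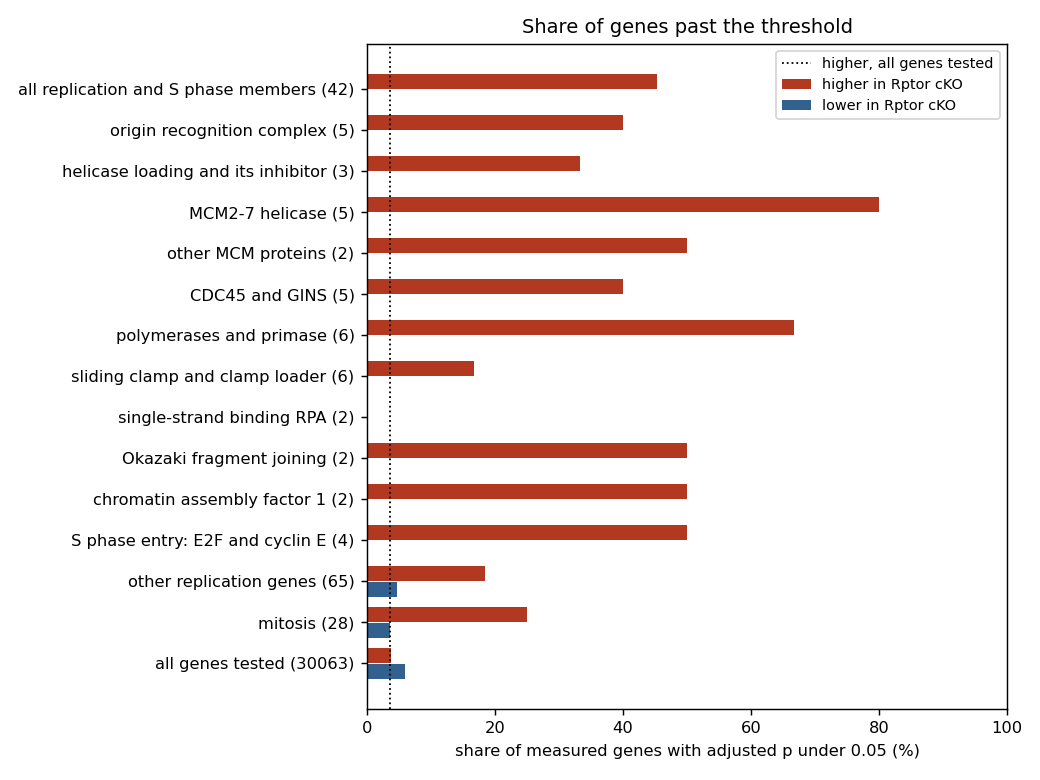
Share of measured genes past the threshold as higher (red) or lower (blue) in Rptor cKO, for all 42 genes, each role, other replication genes, mitosis genes and all genes tested, with the number measured in brackets. The dotted line is the 3.64% of all genes called higher. The bar of the 42 genes reaches 45.2%, and roles with 2 genes can only show 0, 50 or 100%.

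Of 65 measured replication genes outside the 42, in 5 further lists, 12 rose and 3 fell, with a median difference of 0.29. These counts, and those of each list below, stand against 3.64% of all genes called higher and 5.96% called lower. Among 14 origin firing and fork genes 3 rose: Ticrr, which helps CDC45 onto origins, by 0.60 (SE 0.14), Topbp1, its partner, by 0.56 (SE 0.14), and Timeless, of the fork protection complex, by 0.39 (SE 0.088). None of 17 further polymerase and clamp genes passed by limma (6 higher and 1 lower at an unadjusted p under 0.05, against 11.9% and 11.4% of all genes), and those with the smallest p were Pole4 (0.31, adjusted p = 0.0753) and Pold3 (0.41, adjusted p = 0.0846). In the supply of nucleotides for S phase 2 of 7 genes rose. Tyms, the thymidylate synthase, rose by 0.57 (SE 0.091, adjusted p = 0.00861) and Tk1, the thymidine kinase, by 0.55 (SE 0.094). Of 8 genes of histone supply and DNA methylation 2 rose, Uhrf1, which brings the maintenance methyltransferase to new DNA, by 0.68 (SE 0.13) and Slbp, which binds histone mRNA, by 0.33 (SE 0.085).

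Of 19 genes of E2F, its pocket protein partners and S phase kinases, 5 rose and 3 fell. Over all genes 3.64% were called higher and 5.96% lower. Rb1, of the retinoblastoma protein, read 6.17, 5.94 and 6.24 in Rptor cKO, against 6.78, 6.75 and 7.15 in wild type, and fell by 0.78 (SE 0.14, adjusted p = 0.0114). Rbl2, of its relative p130, read 6.002, 5.79 and 6.003 in Rptor cKO, against 6.46, 6.60 and 6.56 in wild type, and fell by 0.61 (SE 0.099, adjusted p = 0.00910). In both genes all Rptor cKO arrays lay below all wild-type arrays. Cdkn1a, of the kinase inhibitor p21, read 8.08, 8.42 and 9.05 in Rptor cKO, against 9.56, 9.74 and 9.42 in wild type, and fell by 1.05 (SE 0.22, adjusted p = 0.0231). Rptor cKO array 3 lay nearest to the wild type, and the call was lost without Rptor cKO array 2 or without wild-type array 5 or 6. The third pocket protein gene, Rbl1, differed by 0.44 (adjusted p = 0.174). Other probe sets of Rb1, which were dimmer, differed by -0.20 and 0.11, and with the mean of the 3 probe sets Rb1 did not pass. The genes that rose were the repressor E2f7 (0.67, SE 0.094, adjusted p = 0.00532), E2f6 (0.49, SE 0.11), Cdc25a, a phosphatase that activates CDK2 (0.51, SE 0.12), Skp2, which marks p27 for degradation (0.38, SE 0.089), and the activator E2f3 (0.61, SE 0.16), whose other probe set differed by 0.59. Without Rptor cKO array 2, of all calls among these lists and the mitosis genes 4 remained, E2f7, Rbl2, Tk1 and Tyms.

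Mitosis genes had a median difference of 0.43, where that of the 42 replication genes was 0.40. Of 28 mitosis genes 7 rose and 1 fell, against 3.64% of all genes called higher and 5.96% called lower. The rises included Anln, of the cleavage furrow protein anillin (0.85, SE 0.15), Aurkb, of a mitotic kinase (0.56, SE 0.10), Cdca8, of its partner borealin (0.44, SE 0.087), and Cdc20, an activator of the anaphase promoting complex (0.59, SE 0.13). Pttg1, the gene of securin, fell by 0.45 (SE 0.089). Mki67, the usual proliferation marker and also chosen after its values were seen, read 10.02, 9.99 and 10.18 in Rptor cKO, against 9.58, 9.45 and 10.21 in wild type. Wild-type array 6 held its highest value and overlapped the Rptor cKO arrays, and the difference of 0.31 (SE 0.19, adjusted p = 0.364) did not pass.

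Some markers of other cell layers and cell types also differed between the groups. The counts below stand against 3.64% of all genes called higher and 5.96% called lower. Markers of suprabasal keratinocytes were lower in Rptor cKO, 8 of 8 past the threshold, with summed linear values from 4363 to 12414 in Rptor cKO and from 22223 to 31695 in wild type. Of 6 basal keratinocyte markers, Itgb4 rose and 5 did not pass, with sums from 6719 to 8592 in Rptor cKO and from 6748 to 7757 in wild type. Fibroblast markers were higher, 4 of 5 past the threshold, with sums from 672 to 869 in Rptor cKO and from 396 to 434 in wild type. Of the others, Pecam1 of endothelium (1 of 5 markers) and Krt18 of Merkel cells rose, while Atoh1 of Merkel cells, Ptprc and Csf1r of the myeloid list (2 of 4) and Cd3g of T cells (1 of 4) fell. None of 5 melanocyte markers passed by limma (2 higher at an unadjusted p under 0.05, against 11.9% of all genes), nor either of 2 erythroid markers (0 at that level). No marker is listed at 0. In a whole sheet a larger share of dividing cells and more RNA per dividing cell cannot be told apart.

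**Figure D5:**
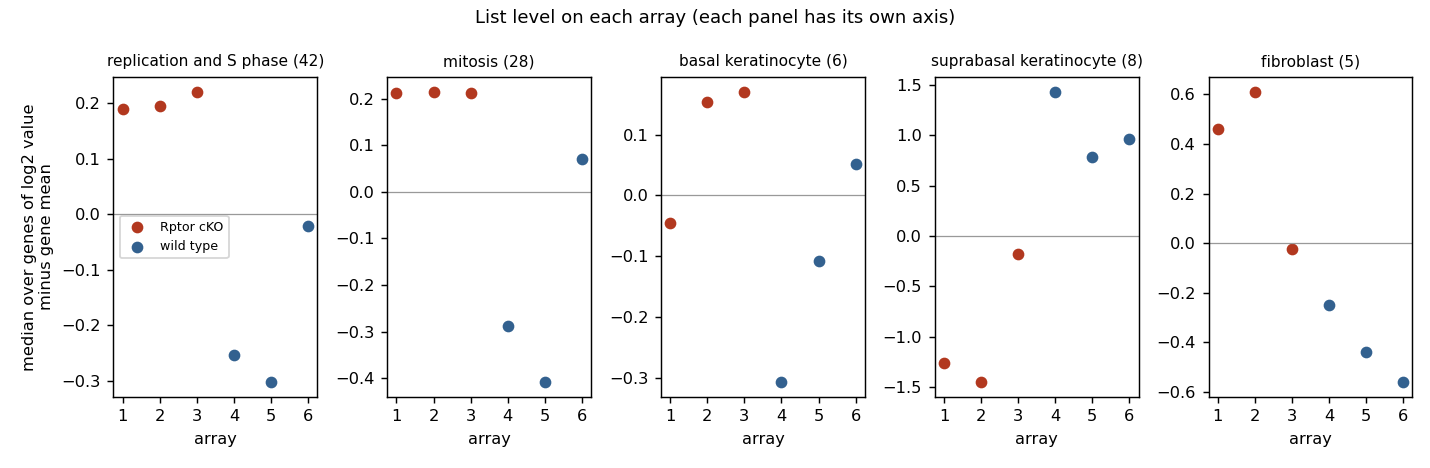
Median over the genes of a list of the log2 value minus the gene's mean, on each array, for the 42 replication genes, mitosis genes and 3 lists of cell type markers, with Rptor cKO arrays 1 to 3 left of wild-type arrays 4 to 6. Axes differ between panels. The replication genes lie at 0.19, 0.20 and 0.22 on the Rptor cKO arrays, while the suprabasal and fibroblast markers set Rptor cKO array 3 apart from arrays 1 and 2.

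The Rptor cKO arrays were further apart in these markers than in the replication genes. On Rptor cKO array 3 the median deviation was -0.18 for suprabasal markers, against -1.26 and -1.45 on Rptor cKO arrays 1 and 2, and -0.022 for fibroblast markers, against 0.46 and 0.61. For the 42 replication genes it was 0.22, against 0.19 and 0.20. How much of the rise goes with the loss of suprabasal RNA or with fibroblast RNA was not tested.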

How the data were processed

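Total RNA of epidermal sheets, freed from dermis with ammonium thiocyanate, was prepared with TRIzol and RNeasy and labelled with biotin, per the labels' protocols. Deposited were log2 values of probe sets, made by the authors with RMA, Partek and mm10 according to the submitters' processing notes, whose tool versions are not stated. Because RMA usually brings arrays towards a common distribution, a general change of RNA per cell cannot be seen. The deposited array medians still differed, from 4.08 to 4.22. Repeated quantile normalization took the median difference of all genes from 0.050 to 0.0062. Of 72688 probe sets, 6732 were controls and 30604 named a single gene, which gave 30063 genes after symbols were updated through RefSeq. Where a gene had more than 1 probe set (429 genes), the brightest on average over the 6 arrays stood for it.

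The fit used limma 3.58.1 (lmFit, then eBayes; R 4.3.3) with group as the sole term, all 6 arrays, two-sided tests and Benjamini-Hochberg adjustment over 30063 genes at 0.05. SE and 95% intervals are moderated, and SD is over 3 arrays. The number of arrays limits the precision. Detection flags and scan batches were not used here. Members and lists were chosen with earlier results of these data known. Per-array values are given for the 12 largest calls, for the largest difference in each role without one, and otherwise where stated. From other lists up to 4 genes per direction with the smallest p are named, or 2 where none passed. A gene given beyond that is named to complete a count or as a relative of a named gene. Promoter words were searched in Python 3.11.15. The alternatives were 2 scalings, a filter on dim genes, another probe set rule, 3 other variance settings, each array left out, and the Rptor cKO arrays high in Xist left out.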

Additional observations from a re-analysis of the deposited data

How the results depend on the processing

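The median difference of the 42 genes stayed positive in all 14 alternatives, from 0.33 to 0.46, and no gene passed as lower in any. The count of 19 rises became 9 with array medians subtracted, 0 without variance moderation (ordinary linear model; 22 at unadjusted p under 0.05) and 1 without the Rptor cKO arrays high in Xist, a fit in which the lone Rptor cKO array is assumed to vary like the wild type. With 1 array left out it ran from 2 (without Rptor cKO array 2) to 17 (without wild-type array 6, of which 15 were among the 19). The 23 calls among the other replication and mitosis genes became 11 with array medians subtracted, 0 without moderation and 1 without the arrays high in Xist, and 4 to 35 with 1 array left out. Over all genes 2886 calls became 8 without moderation, 867 without the arrays high in Xist, and 900 to 2444 with 1 array left out. With array medians subtracted, 75.7% of calls over all genes were lower, against 62.1%. The cause of these changes was not tested. Fits with arrays left out also rest on fewer arrays. Signs turned for genes near 0 that did not pass: with array medians subtracted Orc2 was -0.00049 and Rpa1 -0.028, without Rptor cKO array 1 Orc2 was -0.012 and E2f2 0.12, without wild-type array 4 Rfc1 was -0.0046 and Rpa1 -0.025, without wild-type array 5 Orc2 was -0.048 and Rpa1 -0.0045, and without the arrays high in Xist Orc2 was -0.044, Orc3 -0.057 and E2f2 0.14. With 1 array left out these genes ran up to 0.20 for Orc2, 0.24 for Rfc1 and 0.16 for Rpa1 (all without wild-type array 6), and down to -0.24 for E2f2 (without Rptor cKO array 2). No paired analysis was possible, because the groups share no replicate numbers and no litter is given per array. Wild-type embryos were littermates, but the fit treats all arrays as independent. Groups of 3 arrays are too small for a test of single outlying arrays.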

Other observations

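Genes that repair forks and check S phase, a list written after the values of the 42 genes were seen, held 24 measured genes. Of these 4 rose and none fell by limma, against 3.64% of all genes called higher and 5.96% called lower. At an unadjusted p under 0.05, 13 were higher and 1 lower, against 11.9% and 11.4% of all genes. The median difference was 0.24. The rises were Chek1, of the kinase that slows S phase (0.71, SE 0.17), Brca2 (0.69, SE 0.14) and Brca1 (0.48, SE 0.11), of homologous recombination, and Exo1, an exonuclease of mismatch repair (0.63, SE 0.12, adjusted p = 0.0150). Of 14 cohesion genes, a list written in the same way, none rose and 1 fell by limma, where 5.96% of all genes fell (6 higher and 2 lower at an unadjusted p under 0.05, against 11.9% and 11.4% of all genes). Wapl, of the factor that releases cohesin from DNA, read 6.38, 6.12 and 6.40 in Rptor cKO, against 7.04, 6.94 and 7.24 in wild type, and fell by 0.78 (SE 0.12, adjusted p = 0.00738). Esco2, which acetylates cohesin in S phase, differed by 0.30 (SE 0.091, adjusted p = 0.0878).

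The probe set that names Mcm7 together with Mir25 and Mir93, microRNA genes of the same locus, read 7.11, 7.13 and 6.99 in Rptor cKO, against 6.53, 6.42 and 6.76 in wild type. All Rptor cKO values lay above all wild-type values, a difference of 0.51 that was given no test, since the probe set names several genes. The probe set of Orc5 and the pseudogene Gm15421 read 5.01, 4.67 and 4.87 in Rptor cKO, against 4.49, 4.81 and 5.13 in wild type, and the groups overlapped.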
